A study of Mus musculus with 26 samples.

Results

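The genes that encode the proteins of the cytosolic ribosome were followed in total RNA of the mouse left ventricle, the main pumping chamber of the heart. They were taken by name, as every row of the deposited count table whose symbol is Rpl or Rps followed by a digit, with Rplp0, Rplp1, Rplp2 and Rpsa, and without the Rps6k and Rps19bp genes, the pseudogenes with names in -ps and 2 genes of the large subunit that are not analysed here. This gave 82 genes of the 15249 in the table, 48 of the large subunit and 34 of the small subunit. GENCODE M21 annotates 79 of them as protein coding and 3, Rps3a3, Rps4l and Rpl37rt, as processed pseudogenes. The 26 libraries fall into 4 groups of C57BL6 mice. Mst1Gal3 (5 libraries) carries both the Mst-1 overexpression and the Gal-3 knock out, MstTg (7 libraries) the Mst-1 overexpression, Gal3Ko (8 libraries) the Gal-3 knock out, and wt (6 libraries) is wild type. Mst-1 is the Hippo pathway kinase encoded by Stk4, and galectin-3, a sugar-binding protein linked to inflammation and fibrosis, is encoded by Lgals3. The labels give neither the promoter or cell type that drives Mst-1 nor the age or sex of the animals, and they do not say that each library came from a separate animal, so p-values measure the spread between these libraries.

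Ribosomal proteins fold around the ribosomal RNAs to form a large subunit, which joins amino acids, and a small subunit, which reads the messenger RNA. Their messages belong to the TOP class: transcription starts at a C followed by a run of pyrimidines, and the kinase complex mTORC1, which senses nutrients and growth signals, controls how heavily these messages are translated. Growth of heart muscle draws on new ribosomes, and several ribosomal proteins also act outside the ribosome, as Rpl5, Rpl11 and Rpl23 do when they bind Mdm2 and restrain the breakdown of p53.

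The start sites of 61 of the 82 genes were found in the RefSeq promoter table (build GRCm38.p6). The 30 bases from 10 before the annotated start to 20 from it on were read for 7 genes, which are those past the test in both Mst-1 comparisons below that have an entry. Capitals mark the longest TOP-like run in the window, a C followed by at least 5 bases that are C or T on the transcribed strand.
Rpl12: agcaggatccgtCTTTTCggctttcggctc
Rpl39: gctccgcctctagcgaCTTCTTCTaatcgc
Rpl13a: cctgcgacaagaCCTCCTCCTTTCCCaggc
Rpl10: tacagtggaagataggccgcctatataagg
Rps13: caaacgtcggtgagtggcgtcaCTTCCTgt
Rpl7a: CTCTTCTTTCTTTCTCCagcagccgagcaa
Rpl9: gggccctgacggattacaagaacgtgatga
These windows lie at chr2:32961702-32961731 on the plus strand for Rpl12, chrX:37085203-37085232 on the minus strand for Rpl39, chr7:45128726-45128755 on the minus strand for Rpl13a, chrX:74270806-74270835 on the plus strand for Rpl10, chr7:116334171-116334200 on the minus strand for Rps13, chr2:26910797-26910826 on the plus strand for Rpl7a and chr5:65391412-65391441 on the minus strand for Rpl9. The first 4 genes were higher with Mst-1 and the last 3 were lower, and both sets held windows with a run and a window with none. Over all 61 genes, 35 held such a run (57.4%), against 24.9% of the 27025 genes in the whole promoter table. Of the genes with an entry, the run was present in 3 of 4 that were higher, 3 of 5 that were lower and 29 of 52 that did not pass the test in MstTg against wt hearts. In Mst1Gal3 against Gal3Ko hearts it was present in 6 of 7 higher, 2 of 3 lower and 27 of 51 that did not pass. A window without a run says only that these letters are not there, and draws nothing about transcription in the heart.

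The libraries held 18580405 to 32663735 counts, of which 0.459% to 0.783% fell on the 82 genes. Stk4 reached 839.6 to 1168 CPM in Mst1Gal3 and 846 to 1066 CPM in MstTg, where CPM are counts per 1000000 on TMM-adjusted library sizes. It stood at 21.0 to 25.9 CPM in Gal3Ko and at 22.4 to 26.1 CPM in wt. Lgals3 stood at 2.54 to 5.43 CPM in Mst1Gal3 against 50.9 to 60.01 CPM in MstTg. In Gal3Ko it was at 1.47 to 2.74 CPM, against 0.878 to 2.41 CPM in wt (adjusted p = 0.619), so its level does not separate the libraries labelled Gal3Ko from wt. The mitochondrial genome took 15.7% to 23.0% of the counts of Mst1Gal3 libraries and 14.4% to 23.3% of those of MstTg libraries. In the groups without the overexpression it took 26.8% to 38.3% (Gal3Ko) and 29.2% to 35.5% (wt). In these bulk samples, fewer cells of a type and less RNA per cell cannot be told apart. The 8 cardiomyocyte markers summed to 41212 to 51780.5 CPM in Mst1Gal3, 34274 to 46122 CPM in MstTg, 49179.7 to 58015 CPM in Gal3Ko and 45329 to 50917 CPM in wt. Fibroblast markers, all 7 past the test, were higher in both Mst-1 comparisons, with a sum of 2149.96 to 2715 CPM in Mst1Gal3, 2572 to 3177 CPM in MstTg, 770.3 to 945 CPM in Gal3Ko and 802 to 1079.5 CPM in wt. Of the cardiomyocyte markers 1 was higher and 6 were lower in MstTg against wt, and 1 was higher and 5 were lower in Mst1Gal3 against Gal3Ko. Of 5 endothelial markers 4 were lower in both. Of 5 smooth muscle and pericyte markers 1 was lower in MstTg against wt, and 2 were higher and 1 lower in Mst1Gal3 against Gal3Ko. Of the macrophage (5), atrial (4 measured), red blood cell (5), lymphocyte (1 measured) and skeletal muscle (2 measured) markers, 1, 1, 0, 0 and 1 were higher in both comparisons, and 1 skeletal muscle marker was lower in both. In 6 libraries (1 of Mst1Gal3, 1 of MstTg, 3 of Gal3Ko and 1 of wt) the atrial genes Sln, Myl7 and Myl4 together exceeded 30 CPM. Whether cell makeup or atrial tissue bears on the results below was not tested, and calls are also given without those 6 libraries.

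In wt hearts the 82 genes spanned a wide range of levels. Per kilobase of annotated exon, the wt mean was highest for Rplp1, a stalk protein, with 284 CPM per kb. It was followed by Rps15 with 208, Rplp0 with 179.5, Rpl36 with 143 and Rps29 with 128 CPM per kb. The median gene had 36.0 CPM per kb. At the low end came Rpl36al with 7.44, the pseudogene Rps3a3 with 4.35, Rpl22l1 with 3.43, Rpl13a with 1.94 and the pseudogene Rpl37rt with 0.526 CPM per kb. Neighbours at the top overlapped across the wt libraries: Rplp1 ran over 250.3 to 367 CPM per kb, Rps15 over 186 to 265, and Rplp0 over 162 to 223. Rpl13a, whose protein is known to join a complex that silences inflammatory messages in myeloid cells, stood among the pseudogenes at this end.

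Such levels depend on the annotated exon length, which ran from 383 bases (Rpl36) to 6270 bases (Rps15a, whose principal transcript has 640). In wt CPM not divided by length, Rpl36 (54.7) lay below the median member (70.2). Rps24, with 6256 bases of exon, lay above it (109). The levels also carry the way reads were assigned. Ribosomal protein genes have many processed pseudogenes of near-identical sequence, and how multi-mapping reads were counted is not given in the sources used here. In 79 of the 82 genes a principal transcript could be cut into 50-base windows, and a median of 60% of the windows of a gene also occurred in a transcript of another annotated gene. The share ran from 0% to 98.6% (Rps27), and 51 genes were over 50%. Exons of 26 genes overlapped another annotated gene on the same strand, in 17 of them a small nucleolar RNA, as with Snora65 in Rpl12, Snora70 in Rpl10 and Snord14a in Rps13. Exons of Rpl13a overlapped Gm45713, Mir5121 and Snord33. Values of genes with a high share are uncertain as measures of the named gene, and the share of windows is given where a gene past the test is first described and beside the genes with known duties elsewhere; the pseudogene Rps3a3 has none.

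Summed over the 82 genes, the level overlapped between all 4 groups. It was 6068, 6035, 6048, 7368 and 6390 CPM in the 5 Mst1Gal3 libraries, 5285 to 6745 CPM (median 6135) in MstTg, 5694 to 6579.6 CPM (median 6271) in Gal3Ko and 5734 to 7672 CPM (median 5952) in wt. A single library stood apart at the top in each of 2 groups: replicate 4 of Mst1Gal3 with 7368 CPM and replicate 2 of wt with 7672 CPM, while the next highest were 6390 CPM and 6064 CPM. Without these 2 libraries the means were 6135 ± 171 CPM in Mst1Gal3 (SD, n = 4) and 5912 ± 129 CPM in wt (SD, n = 5), beside 6005 ± 529 CPM in MstTg (SD, n = 7) and 6184 ± 323 CPM in Gal3Ko (SD, n = 8).

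The balance of the subunits separated MstTg from wt. Counts of large subunit genes divided by counts of small subunit genes gave 1.29 to 1.35 in Mst1Gal3, 1.34 to 1.37 in MstTg, 1.29 to 1.33 in Gal3Ko and 1.27 to 1.33 in wt. All 7 MstTg libraries lay above all 6 wt libraries. Of the Mst1Gal3 libraries, 4 lay above all 8 Gal3Ko libraries, and replicate 4, with 1.29, lay among them. The ratio does not depend on library scaling. It is given as a description with no test.

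**Figure D1:**
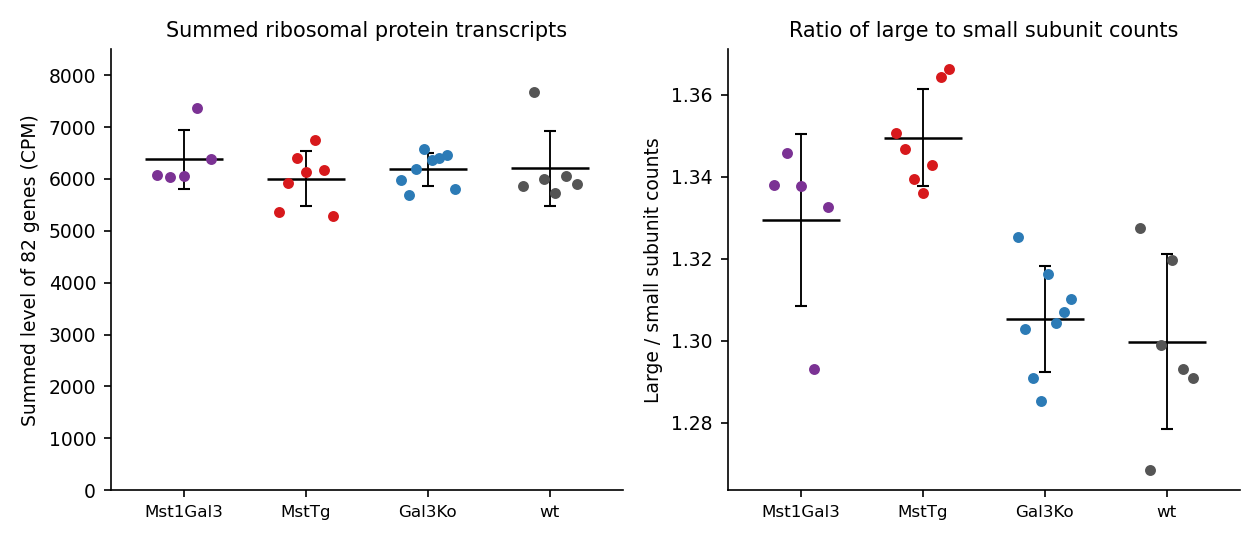
Summed level of the 82 genes in CPM (left) and ratio of large to small subunit counts (right) in each library, with the group mean and SD as bars; the right axis does not start at 0. Replicate 4 of Mst1Gal3 (7368 CPM) and replicate 2 of wt (7672 CPM) stand above their groups on the left, and all MstTg libraries lie above all wt libraries on the right.

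Within groups the 82 genes moved as a block from library to library. After the group mean was removed, the median Pearson correlation of log2 CPM over the 3321 pairs of genes was 0.61 across 26 libraries, and 0.49 without wt replicate 2 and Mst1Gal3 replicate 4. Pairs of other genes with a mean level at or above the 10th percentile of the members, with no upper bound, had a median of 0.061. All pairs share library, depth and scaling, so this is a description. Rps3, a small subunit protein at the messenger entry, had the highest mean correlation with the rest (0.71), followed by Rps20 (0.69). Rpl13a (0.11), Rpl39 (0.17), Rpl37rt (0.18), Rpl7l1 (0.20) and Rps27l (0.24) followed the block least.

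The comparison of MstTg with wt hearts asks what Mst-1 overexpression does where galectin-3 is intact. Of the 82 ribosomal protein genes, 13 passed the test (15.9%), 4 higher and 9 lower, where 55.0% of all genes passed (28.2% higher and 26.8% lower). No member changed by as much as 2-fold, against 12.6% of all genes. The median log2 fold change of the members was -0.038, beside 0.020 over all genes, and the median size of change regardless of sign was 0.085 against 0.29. Of 48 large subunit genes 4 were higher and 4 lower, and of 34 small subunit genes none was higher and 5 were lower. The test was edgeR's quasi-likelihood test, p-values were adjusted by Benjamini and Hochberg over the 15249 genes with 0.05 as the threshold, and all adjusted p-values of single genes come from it. Fold changes are log2 with the SE.

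The higher genes all belong to the large subunit. Rpl39, which lines the tunnel through which the new chain leaves (ENSMUSG00000079641, chrX:37082520-37085402, GRCm38), ran over 29.9 to 55.2 CPM (median 38.6) in MstTg, against 23.9 to 38.1 CPM (median 27.8) in wt. All MstTg libraries were above 4 of the 6 wt libraries (log2 fold change 0.41 ± 0.12, adjusted p = 0.0064; 16.5% of windows shared). Rpl12, which sits at the base of the stalk (ENSMUSG00000038900, chr2:32961559-32965345), ran over 93.9 to 113 CPM (median 106) in MstTg, against 74.2 to 114 CPM (median 85.3) in wt. Only wt replicate 2, the library with the high sum, reached the MstTg values (log2 fold change 0.27 ± 0.075, adjusted p = 0.0033; 49.4% shared). Rpl13a (ENSMUSG00000074129, chr7:45125558-45128761) ran over 4.11 to 5.75 CPM (median 4.60) in MstTg, against 3.51 to 4.41 CPM (median 4.25) in wt (log2 fold change 0.25 ± 0.10, adjusted p = 0.04; 57.4% shared). Rpl10, among the last proteins to join the maturing large subunit (ENSMUSG00000008682, chrX:74270812-74273135), ran over 70.04 to 91.8 CPM (median 80.8) in MstTg, against 65.5 to 85.9 CPM (median 70.2) in wt (log2 fold change 0.16 ± 0.065, adjusted p = 0.031; 92.1% shared). For Rpl13a 1 MstTg library lay within the wt range, and for Rpl10 wt replicate 2 lay above all but 1 of the MstTg libraries.

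Among the lower genes, 5 encode or resemble small subunit proteins. Rps13 (ENSMUSG00000090862, chr7:116331505-116334195) ran over 39.3 to 47.8 CPM (median 43.1) in MstTg, against 50.97 to 66.9 CPM (median 55.99) in wt, and every MstTg library was below every wt library (log2 fold change -0.40 ± 0.069, adjusted p = 9.32e-06; 83.0% shared). The groups did not overlap for 2 members, both lower, where all MstTg libraries were below all wt libraries for 16.2% of all genes and above them for 15.9%. Rps2, near the messenger entry channel (ENSMUSG00000044533, chr17:24718116-24721929), ran over 114 to 177 CPM (median 145) in MstTg, against 163 to 228 CPM (median 182) in wt (log2 fold change -0.37 ± 0.09, adjusted p = 7.71e-04; 79.0% shared). Rps29, a small zinc-binding protein (ENSMUSG00000034892, chr12:69157722-69159186), ran over 58.8 to 78.4 CPM (median 75.3) in MstTg, against 74.4 to 114 CPM (median 85.5) in wt (log2 fold change -0.30 ± 0.08, adjusted p = 0.0019; 35.8% shared). The pseudogene Rps3a3, which resembles Rps3a1 (ENSMUSG00000059751, chr13:108670603-108671397), ran over 1.94 to 2.39 CPM (median 1.998) in MstTg, against 1.29 to 4.75 CPM (median 3.70) in wt, where replicate 4 stood alone at the bottom (log2 fold change -0.72 ± 0.20, adjusted p = 0.0032). Reads of Rps3a3 and of its parent cannot be told apart from these files, and Rps3a1 itself did not pass the test (log2 fold change -0.0098 ± 0.069, adjusted p = 0.919).

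The remaining lower genes belong to the large subunit and changed by less. Rpl9, near the sarcin-ricin loop, ran over 85.9 to 104 CPM (median 97.4) in MstTg, against 98.7 to 139.6 CPM (median 108) in wt (log2 fold change -0.20 ± 0.064, adjusted p = 0.0086; 86.7% shared). Rpl7a, Rpl23a at the tunnel exit, and Rpl7l1, a diverged relative of Rpl7, had log2 fold changes of -0.18, -0.18 and -0.15 (adjusted p = 0.022, 0.029 and 0.03). Their shares of windows were 81.2%, 85.7% and 12.2% in that order. The groups overlap in each of them, and in Rps2, Rps29 and Rpl9 as well. Some calls depended on single libraries: Rpl9, Rpl7a, Rpl23a, Rpl7l1 and Rpl13a missed the threshold without wt replicate 2, though Rpl9 passed when Mst1Gal3 replicate 4 was left out as well. With 1 other library left out at a time, Rpl10 and Rpl13a missed it without MstTg replicate 3, Gal3Ko replicate 6, wt replicate 3 or wt replicate 4, Rpl10 also without MstTg replicate 5, wt replicate 1 or wt replicate 6, Rpl13a also without MstTg replicate 2 or 6, Rpl7a without MstTg replicate 1, Rpl23a without MstTg replicate 6 or 7, and Rpl7l1 without MstTg replicate 1 or 7 or wt replicate 1 or 3.

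The same question was put to hearts without galectin-3, Mst1Gal3 against Gal3Ko. Of the 82 genes, 16 passed the test, 10 higher and 6 lower, where 52.5% of all genes passed (26.9% higher and 25.6% lower). The median log2 fold change of the members was 0.029, beside 0.0052 over all genes, and again none changed by 2-fold, against 11.1% of all genes. Both subunits had members on each side: 6 higher and 2 lower in the large subunit, 4 higher and 4 lower in the small. All Mst1Gal3 libraries were above all Gal3Ko libraries for 2 members (16.5% of all genes) and below them for 1 member (14.5% of all genes).

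Rpl12 had 105, 106, 107, 139 and 112 CPM in Mst1Gal3, against 79.7 to 93.9 CPM (median 87.5) in Gal3Ko, and the groups did not overlap (log2 fold change 0.39 ± 0.076, adjusted p = 6.94e-05). Rpl13a had 4.68, 6.05, 5.87, 5.94 and 5.22 CPM in Mst1Gal3, against 3.23 to 4.90 CPM (median 4.32) in Gal3Ko (log2 fold change 0.41 ± 0.10, adjusted p = 0.0014). Rpl39 had 31.4, 35.8, 45.2, 41.01 and 41.2 CPM in Mst1Gal3, against 27.6 to 40.7 CPM (median 29.1) in Gal3Ko (log2 fold change 0.33 ± 0.13, adjusted p = 0.027). For Rpl13a 1 and for Rpl39 2 of the Mst1Gal3 libraries fell within the Gal3Ko range. Rpl10 had 82.6, 84.8, 76.4, 100.2 and 82.9 CPM in Mst1Gal3, against 67.8 to 79.8 CPM (median 71.99) in Gal3Ko (log2 fold change 0.24 ± 0.066, adjusted p = 0.0023), and only 1 Mst1Gal3 library was below the highest of Gal3Ko. Rps12, a protein of the small subunit head (ENSMUSG00000061983, chr10:23785183-23787275), had 91.4, 87.7, 83.8, 125 and 91.1 CPM in Mst1Gal3, against 72.1 to 82.2 CPM (median 78.5) in Gal3Ko, with no overlap (log2 fold change 0.30 ± 0.10, adjusted p = 0.011; 90.1% shared). Rps20, also in the head (ENSMUSG00000028234, chr4:3831334-3835665), had 63.5, 61.5, 66.97, 89.7 and 66.4 CPM in Mst1Gal3, against 50.4 to 61.5 CPM (median 57.7) in Gal3Ko (log2 fold change 0.31 ± 0.087, adjusted p = 0.0034; 7.57% shared), and the lowest Mst1Gal3 value lay at the highest of Gal3Ko. The Rps20 share was taken over a principal transcript of 3706 bases with windows shared by 50 other genes, so it is not read as near-unique sequence. Replicate 4 held the highest Mst1Gal3 value of Rpl12, Rpl10, Rps12 and Rps20. Rpl10a, a protein of the mobile L1 stalk (log2 fold change 0.31 ± 0.10, adjusted p = 0.0093; 88.1% shared), the stalk protein Rplp1 (log2 fold change 0.24 ± 0.093, adjusted p = 0.033; 60% shared) and Rps26 at the messenger exit (log2 fold change 0.22 ± 0.068, adjusted p = 0.0069; 38.3% shared) were higher too.

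On the lower side, Rps13 had 46.1, 46.6, 41.9, 52.5 and 44.8 CPM in Mst1Gal3, against 45.9 to 64.7 CPM (median 54.8) in Gal3Ko (log2 fold change -0.25 ± 0.072, adjusted p = 0.004). Rps29 had 68.8, 68.4, 76.8, 80.6 and 76.9 CPM in Mst1Gal3, against 79.5 to 100.01 CPM (median 88.8) in Gal3Ko (log2 fold change -0.26 ± 0.082, adjusted p = 0.0092). In Rps13 and Rps29 the highest Mst1Gal3 libraries reached the lowest Gal3Ko libraries. Rps3a3 (log2 fold change -0.55 ± 0.22, adjusted p = 0.034), Rpl9 (log2 fold change -0.19 ± 0.066, adjusted p = 0.018) and Rpl7a (log2 fold change -0.17 ± 0.068, adjusted p = 0.037) were lower by the test with overlapping groups. Without Mst1Gal3 replicate 4, Rplp1, Rps12, Rps26, Rpl10a and Rpl39 no longer passed. Rpl39 was also lost without Mst1Gal3 replicate 3 or 5 or Gal3Ko replicate 6, and Rplp1 without Mst1Gal3 replicate 5 or Gal3Ko replicate 1, 2, 6 or 8. Rpl7a was lost without Mst1Gal3 replicate 1, 2, 3 or 5 or Gal3Ko replicate 1, 5 or 7, and Rps3a3 without Mst1Gal3 replicate 1, 2 or 5 or Gal3Ko replicate 5 or 7.

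**Figure D2:**
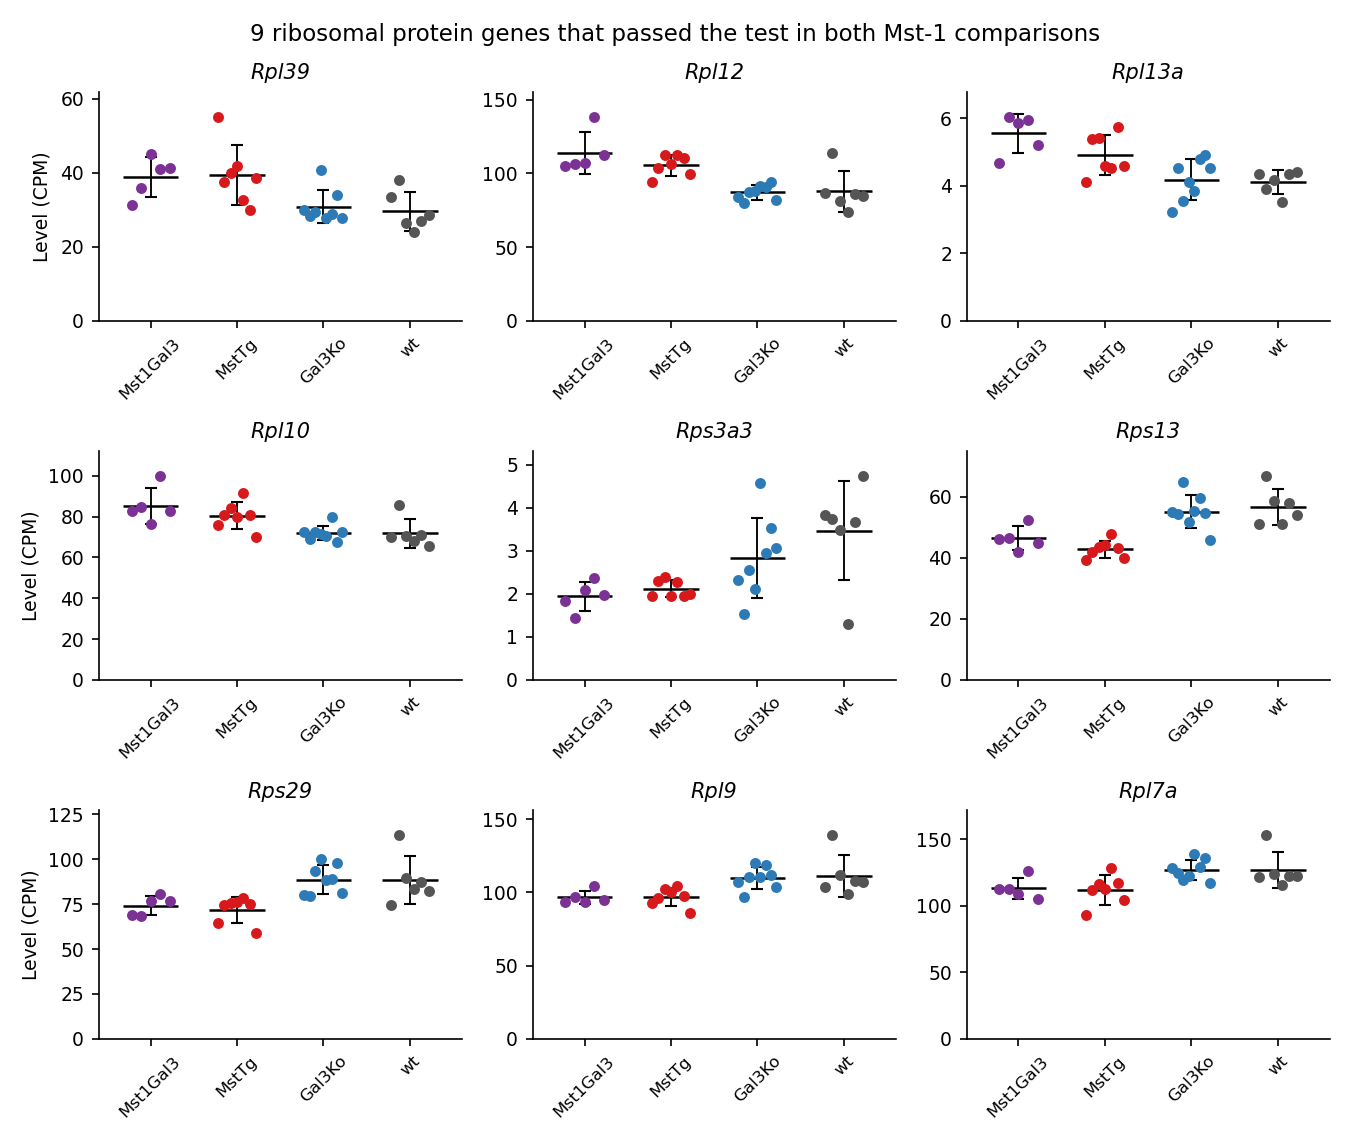
Level in CPM of 9 of the 10 genes past the test in both Mst-1 comparisons, for every library (points) with the group mean and SD. Rpl39, Rpl12, Rpl13a and Rpl10 are higher with Mst-1 and Rps3a3, Rps13, Rps29, Rpl9 and Rpl7a lower; Rpl12 shows no overlap between Mst1Gal3 and Gal3Ko, and Rps13 none between MstTg and wt.

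The 2 comparisons, which share no library, had 10 genes in common. All 4 genes higher in MstTg against wt were among the 10 higher in Mst1Gal3 against Gal3Ko (100% and 40% of each list), and all 6 genes lower in Mst1Gal3 against Gal3Ko were among the 9 lower in MstTg against wt (100% and 66.7% of each list). Of the 19 genes past the test in either, 10 passed in both, none in opposite directions, and all 19 estimates had the same sign. The shared set was smaller without the 6 atrial libraries: 4 of the 10 genes then passed in both, among them Rpl12, Rps13 and Rps29, while Rpl10 and Rpl13a did not pass in MstTg against wt, and Rpl39, Rpl9, Rpl7a and Rps3a3 did not pass in Mst1Gal3 against Gal3Ko. Without wt replicate 2 and Mst1Gal3 replicate 4, 8 of the 10 passed in both, and Rpl13a and Rpl7a did not. Under library totals 4 of the 10 did, namely Rpl10, Rpl12, Rpl13a and Rpl39. Across the 82 genes the log2 fold changes had a Pearson correlation of 0.88 and a Spearman correlation of 0.82. Genes are not independent replicates, and no p is given. Of all genes, 55.0% passed in MstTg against wt and 52.5% in Mst1Gal3 against Gal3Ko. Overlap, sign agreement and correlation over all genes are not given here, so the values above are not read as particular to the ribosomal protein genes. In 81 of 82 genes both estimates were within 0.5 of 0, Rps3a3 being the exception.

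**Figure D3:**
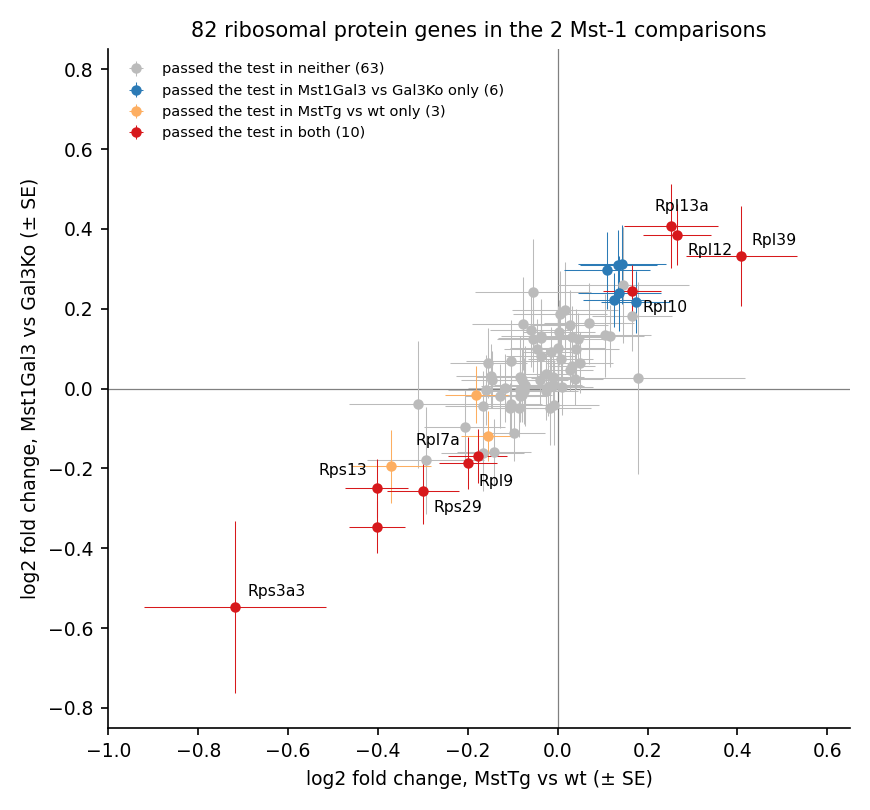
log2 fold change with its SE of the 82 genes in MstTg against wt (x axis) and in Mst1Gal3 against Gal3Ko (y axis), coloured by where each passed the test. The 10 genes past it in both lie in the lower left and upper right of the plot.

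The number of members past the test depended on the scaling. With library totals in place of TMM, 42 members passed in MstTg against wt (41 higher and 1 lower; 65.3% of all genes) and 64 in Mst1Gal3 against Gal3Ko (64 higher and 0 lower; 61.0% of all genes). Under that scaling the median of all genes moved to 0.27 and 0.24, and that of the members to 0.21 and 0.26. The mitochondrial share of counts given above moves with the groups, and its part in this shift was not tested. When libraries were instead scaled to the summed counts of the 82 genes, 17 passed in MstTg against wt (10 higher and 7 lower; 47.9% of all genes) and 19 in Mst1Gal3 against Gal3Ko (8 higher and 11 lower; 45% of all genes). Scaling to the sum of the members themselves puts estimates on both sides of 0 by construction. The balance of higher and lower genes there cannot show a change of the whole set. On that scale all 8 genes higher in the second comparison were also higher in the first, among them Rpl10, Rpl10a, Rpl12, Rpl13a, Rplp1, Rps12 and Rps20, and all 7 lower in the first were also lower in the second, among them Rpl36, Rpl9, Rps13, Rps2, Rps29 and Rps3a3. Without wt replicate 2 and Mst1Gal3 replicate 4, 16 passed in MstTg against wt (10 higher and 6 lower; 53.8% of all genes) and 15 in Mst1Gal3 against Gal3Ko (7 higher and 8 lower; 50% of all genes). Without the 6 atrial libraries, 14 passed (2 higher and 12 lower; 53.3% of all genes) and 10 passed (7 higher and 3 lower; 46.7% of all genes). Rpl12 and Rpl39 in MstTg against wt, and Rpl10, Rpl12, Rpl13a and Rps20 in Mst1Gal3 against Gal3Ko, passed under all 38 alternatives run.

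**Figure D4:**
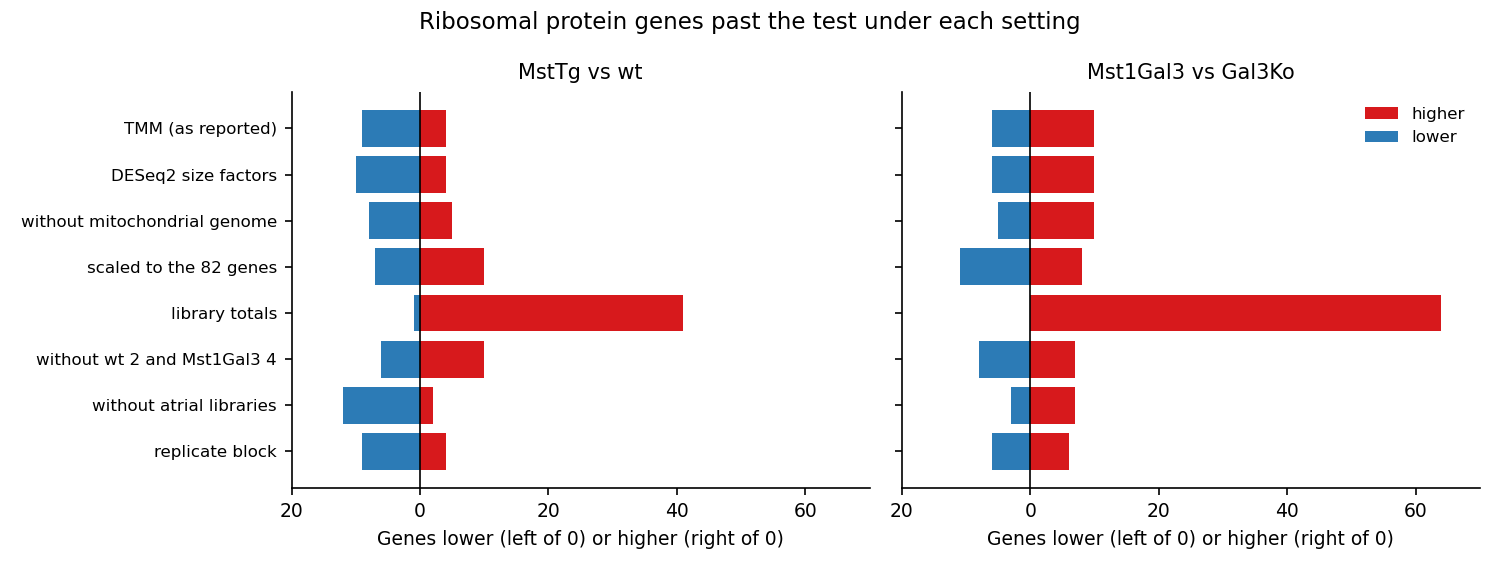
Number of the 82 genes past the test, higher (right of 0) and lower (left of 0), under the reported TMM scaling and 7 other settings, for MstTg against wt and Mst1Gal3 against Gal3Ko. Library totals give 41 and 64 higher genes, and the other settings shown give 2 to 10.

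The effect of galectin-3 loss alone was sought in Gal3Ko against wt. In the libraries labelled Gal3Ko against wt, 0 of 82 members passed (0.354% of all genes did), 0 had an unadjusted p under 0.05, and the lowest adjusted p was 0.87. DESeq2 and limma-voom also called 0. The 95% intervals lay within 1.5-fold in either direction for 80 of 82 members, the exceptions being the pseudogenes Rps3a3 and Rpl37rt, which have few counts. Among the 79 coding genes, the interval reached farthest down for Rps21 (-0.35) and farthest up for Rpl22l1 (0.35).

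In Mst1Gal3 against MstTg hearts, where both carry the Mst-1 overexpression, 0 members passed (4.89% of all genes did), 6 had an unadjusted p under 0.05 (7.32%, against 18.3% of all genes) and the lowest adjusted p was 0.15, while DESeq2 and limma-voom also called 0. Estimates were above 0 for 71 of 82 members (86.6%, against 54.5% of all genes), with a median of 0.083 beside 0.017 over all genes. Without Mst1Gal3 replicate 4 the median of the members was 0.022 and without MstTg replicate 7 it was 0.052. Under library totals the median of the members was 0.0096, beside -0.057 over all genes. Rpsa, the small subunit protein also described as a laminin receptor precursor, had 164, 169.6, 154, 195 and 174 CPM in Mst1Gal3, against 132 to 169 CPM (median 149) in MstTg (log2 fold change 0.18 ± 0.073, adjusted p = 0.155; 53.7% shared). Without the atrial libraries Rps2 passed (log2 fold change 0.33 ± 0.10, adjusted p = 0.048).

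The interaction, the Mst-1 difference without galectin-3 minus that with it, gave 0 members past the test (0.656% of all genes), 0 with an unadjusted p under 0.05, and a lowest adjusted p of 0.486. DESeq2 and limma-voom also called 0. Estimates of the interaction were above 0 for 74 of 82 members (90.2%, against 52.5% of all genes), with a median of 0.087 beside 0.012 over all genes. With 1 library left out at a time the median of the members ran from 0.024 to 0.12. Mst1Gal3 replicate 4 and wt replicate 2, the libraries with the high sums, both enter the interaction with a plus sign. In them the median member lay 0.24 and 0.31 log2 units above its wt mean. Each single omission keeps 1 or both of them, and the median without both is not given here. The share above 0 is therefore not read as a trend of the other libraries. Among members past the test in only 1 of the Mst-1 comparisons, the difference in response itself did not pass: Rps20 had an interaction of 0.17 ± 0.12 (adjusted p = 0.599), Rps12 of 0.19 ± 0.14 (adjusted p = 0.62) and Rps2 of 0.18 ± 0.13 (adjusted p = 0.617). Intervals were wider here, with a median SE of 0.11, and Rps21 alone among coding genes reached beyond 1.5-fold (upper bound 0.68).

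Several ribosomal proteins have a related copy, and the ratio of copy to partner within a library does not depend on scaling. It does depend on how reads with several matches were assigned, which is not known here. The shares of windows found in another gene were 22.4% for Rps27l and 98.6% for Rps27, 65.6% for Rpl22l1 and 24.5% for Rpl22. They were 63.3% for Rpl36al and 85.5% for Rpl36a, 12.2% for Rpl7l1 and 53.3% for Rpl7, and 72.2% for Rps4x, while Rps4l has no value. The table held 5 such pairs, and 20 tests were made, 4 comparisons for each pair, by exact permutation over libraries with Benjamini-Hochberg adjustment over the 20. None passed, and the lowest adjusted p was 0.11. Rpl36al counts were 40.5% to 56.9% of Rpl36a counts in MstTg, against 52.1% to 70.2% in wt (difference of mean log2 ratios -0.25, exact p = 0.022, adjusted p = 0.111, two-sided). In Mst1Gal3 they were 43.8% to 51.6%, against 48.4% to 64.7% in Gal3Ko (-0.18, exact p = 0.016, adjusted p = 0.111). Rpl7l1 counts were 15.5% to 17.4% of Rpl7 counts in MstTg, against 15.3% to 18.8% in wt (-0.14, exact p = 0.021, adjusted p = 0.111). Rps27l, a p53 target in human cells, stood at 29.7% to 39.2% of Rps27 in MstTg, against 24.6% to 34.00% in wt (0.18, exact p = 0.052, adjusted p = 0.131). Rpl22l1 stood at 12.1% to 15.7% of Rpl22 in Mst1Gal3, against 8.75% to 14.7% in Gal3Ko (0.27, exact p = 0.051, adjusted p = 0.131). The pseudogene Rps4l stood at 3.01% to 5.22% of the X-linked Rps4x in MstTg, against 4.42% to 6.23% in wt (-0.35, exact p = 0.019, adjusted p = 0.111). In each pair the groups overlap.

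The members with known duties beyond the ribosome, or often used as reference genes, mostly did not pass the test (means ± SD over 5 Mst1Gal3, 7 MstTg, 8 Gal3Ko and 6 wt libraries). The calls below hold for TMM scaling. With library totals, Rplp0, Rplp1, Rpl5, Rpl23, Rps6 and Rpl38 passed as higher in both Mst-1 comparisons. Rpl11 and Rps19 then passed as higher in Mst1Gal3 against Gal3Ko only. Under that scaling 51.1% and 48.4% of all genes were higher in the 2 comparisons. Rplp0, the stalk protein that anchors Rplp1 and Rplp2, was at 313 ± 17.2 CPM in Mst1Gal3, 292 ± 34.9 in MstTg, 315 ± 19.3 in Gal3Ko and 298 ± 36.95 in wt (41.8% shared), and passed in no comparison. Its partner Rplp1 was at 169 ± 20.1 CPM in Mst1Gal3, 156 ± 19.8 in MstTg, 143 ± 15.4 in Gal3Ko and 141 ± 21.4 in wt (60% shared), and passed in Mst1Gal3 against Gal3Ko only. Of the genes whose proteins bind Mdm2, Rpl5 was at 62.7 ± 1.67 CPM in Mst1Gal3, 61.9 ± 2.92 in MstTg, 60.2 ± 2.46 in Gal3Ko and 60.5 ± 5.66 in wt (93.8% shared), Rpl11 at 59.7 ± 9.50 CPM in Mst1Gal3, 52.9 ± 6.19 in MstTg, 54.7 ± 4.94 in Gal3Ko and 54.9 ± 3.998 in wt (62.2% shared) and Rpl23 at 93.6 ± 7.03 CPM in Mst1Gal3, 91.4 ± 2.67 in MstTg, 93.00 ± 8.18 in Gal3Ko and 91.9 ± 8.71 in wt (34.8% shared), and none passed in any comparison. Rps6, the substrate of the S6 kinases downstream of mTORC1, was at 72.1 ± 7.82 CPM in Mst1Gal3, 68.2 ± 7.77 in MstTg, 68.6 ± 3.21 in Gal3Ko and 67.9 ± 7.71 in wt (84.6% shared). Rps19, the gene most often mutated in human Diamond-Blackfan anaemia, was at 47.9 ± 6.58 CPM in Mst1Gal3, 46.3 ± 5.08 in MstTg, 47.8 ± 4.58 in Gal3Ko and 50.2 ± 6.18 in wt (53.6% shared), and Rpl38, which aids translation of Hox messages in mouse embryos, at 37.98 ± 8.96 CPM in Mst1Gal3, 32.9 ± 2.57 in MstTg, 33.3 ± 3.996 in Gal3Ko and 32.8 ± 4.96 in wt (55.4% shared); neither passed in any comparison.

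The large subunit and small subunit genes can be set beside other genes of protein synthesis. Mitochondrial ribosomal proteins, which translate the mitochondrial genome, were mostly lower with Mst-1. Of 77 genes 0 were higher and 70 lower in MstTg against wt, and 3 were higher and 61 lower in Mst1Gal3 against Gal3Ko, with medians of -0.63 and -0.47 beside the cytosolic medians of -0.038 and 0.029. Of all genes, 28.2% were higher and 26.8% lower in the first comparison, and 26.9% and 25.6% in the second. Mrps35 had a log2 fold change of -1.07 ± 0.051 (adjusted p = 1.09e-17) in MstTg against wt and of -1.0005 ± 0.054 (adjusted p = 2.45e-16) in Mst1Gal3 against Gal3Ko, and Mrps9 had -0.84 ± 0.048 (adjusted p = 6.99e-16) and -0.74 ± 0.05 (adjusted p = 4.98e-14) in the same order. Under library totals 58 and 44 of the 77 were lower, and 5 and 8 higher, where 14.2% and 12.7% of all genes were lower and 51.1% and 48.4% higher. The mitochondrial share of counts given above was lower with Mst-1, as were 6 and 5 of the 8 cardiomyocyte markers, and their part in this was not tested.

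Among factors that assemble ribosomes, higher genes outnumbered lower ones. The shares of all genes to set beside the counts that follow are 28.2% higher and 26.8% lower in MstTg against wt, and 26.9% higher and 25.6% lower in Mst1Gal3 against Gal3Ko. Of 59 measured ribosome biogenesis genes 23 were higher and 8 lower in MstTg against wt, and 23 were higher and 6 lower in Mst1Gal3 against Gal3Ko. Rrp12, a pre-ribosome export factor in yeast, had a log2 fold change of 1.21 ± 0.10 (adjusted p = 8.27e-12) in MstTg against wt and of 1.61 ± 0.10 (adjusted p = 1.17e-14) in Mst1Gal3 against Gal3Ko. Sbds, which helps to release Eif6 from the large subunit, had 0.62 ± 0.057 (adjusted p = 4.11e-11) and 0.58 ± 0.057 (adjusted p = 2.73e-10) in the same order. Of 36 initiation factors 6 were higher and 13 lower in MstTg against wt, and 7 were higher and 7 lower in Mst1Gal3 against Gal3Ko. Eif4g1, the scaffold of the cap-binding complex, had a log2 fold change of -0.39 ± 0.055 (adjusted p = 3.18e-07) in MstTg against wt and of -0.30 ± 0.057 (adjusted p = 4.28e-05) in Mst1Gal3 against Gal3Ko, and Eif4a1, the helicase of that complex, had 0.37 ± 0.054 (adjusted p = 6.12e-07) and 0.49 ± 0.054 (adjusted p = 3.38e-09) in the same order. Of 12 elongation and release factors 1 was higher and 5 lower in MstTg against wt, and 1 was higher and 3 lower in Mst1Gal3 against Gal3Ko.

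Eef1a1, which delivers aminoacyl-tRNA to the ribosome and is itself a TOP message, had a log2 fold change of 1.22 ± 0.065 (adjusted p = 1.41e-16) in MstTg against wt and of 1.15 ± 0.064 (adjusted p = 4.96e-16) in Mst1Gal3 against Gal3Ko. Eef1a2, the form of adult muscle, had -0.50 ± 0.075 (adjusted p = 1.09e-06) and -0.27 ± 0.078 (adjusted p = 0.0038) in the same order. Of 17 TOP messages that encode no ribosomal protein 5 were higher and 4 lower in MstTg against wt, and 5 were higher and 0 lower in Mst1Gal3 against Gal3Ko. Pabpc1, the poly(A)-binding protein, had a log2 fold change of 0.60 ± 0.059 (adjusted p = 2.40e-10) in MstTg against wt and of 0.44 ± 0.059 (adjusted p = 1.81e-07) in Mst1Gal3 against Gal3Ko, and Gas5, a non-coding host of small nucleolar RNAs, had 0.70 ± 0.089 (adjusted p = 5.28e-08) and 0.46 ± 0.089 (adjusted p = 5.91e-05) in the same order. Of 27 genes of mTORC1 signalling and TOP control 2 were higher and 11 lower in MstTg against wt, and 1 was higher and 10 lower in Mst1Gal3 against Gal3Ko. Rragd, a Rag GTPase that brings mTORC1 to lysosomes, had a log2 fold change of -1.42 ± 0.11 (adjusted p = 2.68e-12) in MstTg against wt and of -1.20 ± 0.11 (adjusted p = 3.71e-10) in Mst1Gal3 against Gal3Ko.

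Fau and Rack1, ribosomal constituents under other names, passed the test in no comparison; in Mst1Gal3 against Gal3Ko their log2 fold changes were 0.17 ± 0.12 (SE; adjusted p = 0.246) for Fau and 0.068 ± 0.074 (adjusted p = 0.463) for Rack1. In Gal3Ko against wt none of these lists had a gene past the test. Library totals moved every one of these counts towards higher, where 51.1% of all genes were higher and 14.2% lower in MstTg against wt, and 48.4% were higher and 12.7% lower in Mst1Gal3 against Gal3Ko. Of the ribosome biogenesis genes 50 were higher and 2 lower in the first comparison (median 0.35), and 47 and 1 in the second (median 0.36). Of the initiation factors 20 were higher and 2 lower in the first comparison (median 0.16), and 21 and 0 in the second (median 0.18), of the elongation and release factors 7 were higher and 1 lower in the first comparison (median 0.14), and 8 and 0 in the second (median 0.18), of the TOP messages that encode no ribosomal protein 13 were higher and 0 lower in the first comparison (median 0.33), and 15 and 0 in the second (median 0.34), and of the mTORC1 genes 11 were higher and 4 lower in the first comparison (median 0.15), and 12 and 2 in the second (median 0.15).

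**Figure D5:**
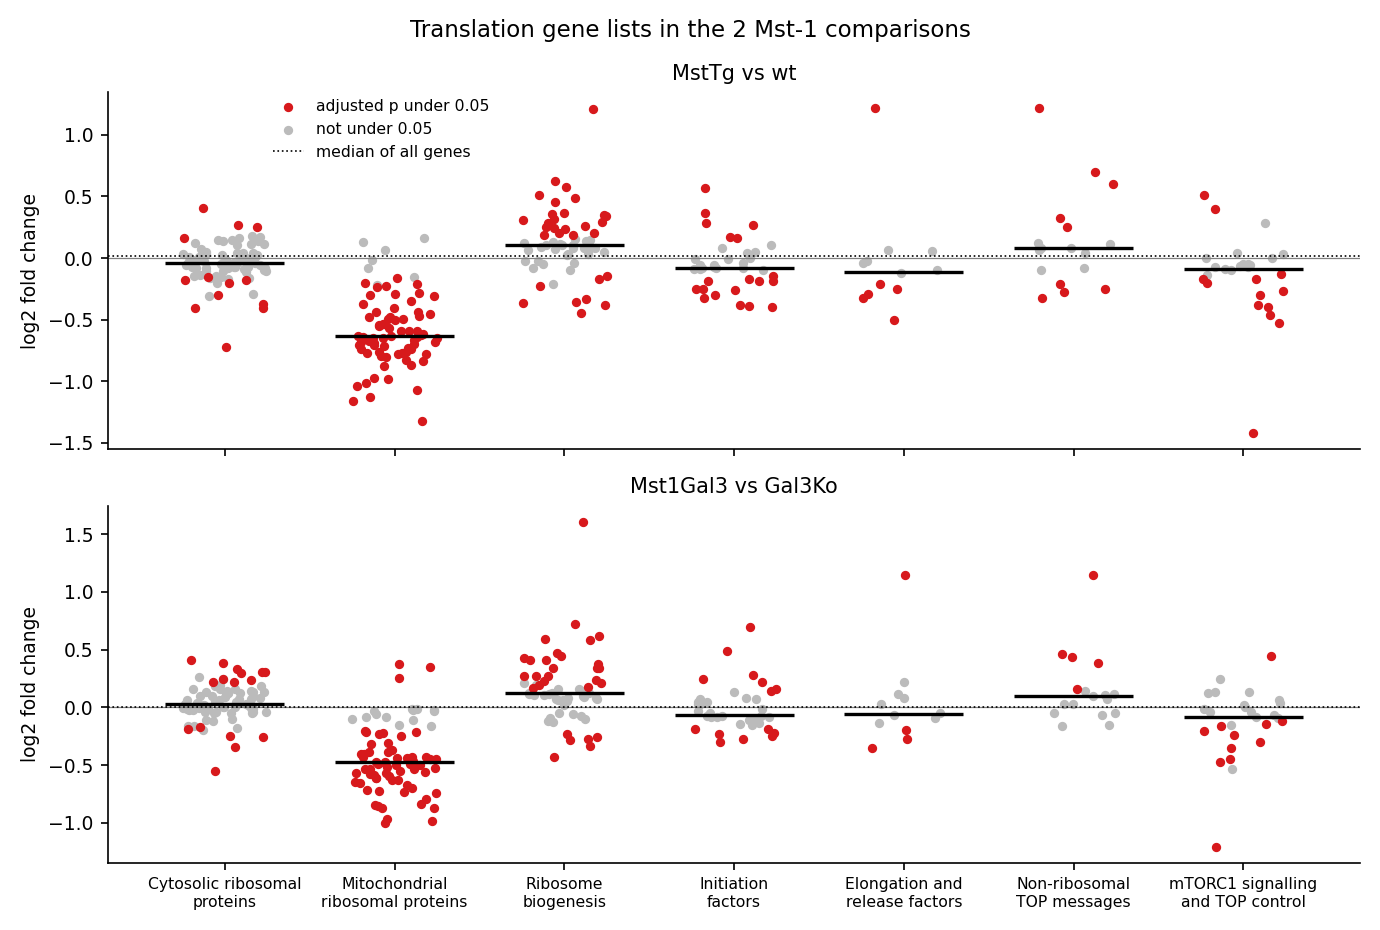
log2 fold change of every measured gene of 7 lists in MstTg against wt (top) and Mst1Gal3 against Gal3Ko (bottom); red points passed the test, thick lines are list medians and the dotted line is the median of all genes. The cytosolic ribosomal proteins lie close to 0 and the mitochondrial ones mostly below it.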

How the data were processed

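Per the labels, total RNA of left ventricle (200 ng) was depleted of ribosomal RNA and made into directional libraries. The deposited table holds raw counts per gene. bcl2fastq 2.19.1.403, STAR, featureCounts and GRCm38 stand in the submitters' processing notes. The sources used here give neither their other versions nor the treatment of strand and of reads with several matches. The 26 libraries were grouped by genotype label. Counts of 15249 genes were fitted together in edgeR 4.0.16 (R 4.3.3; TMM scaling, filterByExpr, which removed 0 genes, robust quasi-likelihood), p-values adjusted by Benjamini and Hochberg over these genes, threshold 0.05. DESeq2 1.42.0, limma-voom 3.58.1, other scalings, filters, a replicate block and libraries left out in turn were alternatives. Scripts were tested on simulated data. Named genes are up to 6 members per direction of largest change, paralog pairs, stalk and extra-ribosomal genes, the levels' extremes, and up to 4 genes of smallest p per list. Rps3, Rps21, Rpl7a, Rpl23a, Rpl36a and members called only under alternatives were named after their values were seen. Members and lists were chosen with earlier results of these data known. Intervals are 95% and use 22 residual degrees of freedom. Some genes are not reported here. Promoters came from RefSeq, annotation from GENCODE M21.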

Additional observations from a re-analysis of the deposited data

Results flagged for a closer look

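Values that stood apart from the rest of their group were sought in 100 groups of values, and 20 were found. Each was a highest or lowest library whose gap to the next exceeded the 95% limit of Dixon's test, which chance passes in about 1 of 20 groups. The groups of values come from the same libraries and from genes that move together. They are not independent, so the number found cannot be weighed against that rate. Of the 20, 10 belong to wt replicate 2 and 6 to Mst1Gal3 replicate 4.

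In Mst1Gal3 replicate 4 the summed level of the ribosomal protein genes was 7368 CPM (next highest 6390 CPM), and the ratio of large to small subunit counts was 1.29 (next lowest 1.33). Rpl12 stood at 139 CPM (next 112), Rps12 at 125 CPM (next 91.4), Rps20 at 89.7 CPM (next 67.0) and Rps26 at 61.4 CPM (next 47.9).

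In wt replicate 2 the summed level was 7672 CPM (next highest 6064 CPM), or 1.07% of counts outside the mitochondrial genome (next 0.831%). There Rpl10 stood at 85.9 CPM (next 71.1), Rpl12 at 114 CPM (next 86.5), Rpl7a at 153 CPM (next 124), Rpl9 at 139.6 CPM (next 112), Rplp1 at 183 CPM (next 144), Rps12 at 116 CPM (next 78.9) and Rps20 at 74.3 CPM (next 57.9). Rpl7l1 counts were 15.3% of Rpl7 counts in this library (next lowest 17.7%).

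Of the other values, Rps4l counts were 3.01% of Rps4x counts in MstTg replicate 1 (next lowest 4.27%), Rpl10 stood at 79.8 CPM in Gal3Ko replicate 6 (next highest 72.5), Rpl36al counts were 64.7% of Rpl36a counts in Gal3Ko replicate 1 (next highest 54.9%), and Rps3a3 stood at 1.29 CPM in wt replicate 4 (next lowest 3.49).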

How the results depend on the processing

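With library totals, 42 members passed in MstTg against wt and 64 in Mst1Gal3 against Gal3Ko, with medians of 0.21 and 0.26. Under that scaling estimates turned above 0 for Rpl9 (0.046), Rpl23a (0.065), Rpl7a (0.068) and Rpl7l1 (0.092) in MstTg against wt and for Rpl9 (0.045) and Rpl7a (0.066) in Mst1Gal3 against Gal3Ko. The cause was not tested. Without the 6 atrial libraries 1 member passed in Mst1Gal3 against MstTg and 10 in Mst1Gal3 against Gal3Ko, with fewer samples. That setting, the setting without wt replicate 2 and Mst1Gal3 replicate 4 and the scaling to the members were chosen after seeing the data. With 1 library left out at a time, 11 to 17 members passed in MstTg against wt (median -0.067 to 0.037), 11 to 16 in Mst1Gal3 against Gal3Ko (0.0008 to 0.056), and 0 in Gal3Ko against wt (-0.028 to 0.062), Mst1Gal3 against MstTg (0.022 to 0.10) and the interaction (0.024 to 0.12). Over called members, 703 of these values kept direction and call and 51 lost the call, and under the other settings 301 kept them, 41 lost the call and 6 reversed. All 20 paralog ratios stayed short of the threshold.

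Same-numbered libraries had correlations of deviations of -0.28 to 0.23 in 34 pairs, 11 of them over 0.1, and differently numbered ones were over 0.1 in 29 of 217 pairs. No 2 groups had every same-numbered pair over 0.1, so the numbers were not taken as pairing. Gal3Ko and wt came nearest, with 4 of 6 over 0.1 (median 0.15, against -0.022 for differently numbered pairs). With the replicate number as a block, 13 members passed in MstTg against wt (median -0.035), 12 in Mst1Gal3 against Gal3Ko (0.013) and 0 in Gal3Ko against wt (0.024), Mst1Gal3 against MstTg (0.068) and the interaction (0.059). Depth limits the pseudogenes Rpl37rt and Rps3a3 most: their lowest counts in any library were 5 and 23.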
